A study of Homo sapiens with 6 samples.

Results

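The fibrillar and interstitial matrix genes are 37 genes for collagens, adhesive glycoproteins, elastic fibre proteins, proteoglycans and the enzymes that cross-link and modify them. The rule that chose them uses gene names and drops any gene absent from the 20745 genes of the deposited table. That all 37 have a value therefore follows from the rule and is not a result. The rule uses no level, although earlier results of these data were known when the list was drawn up. The table comes from RNA sequencing of AB 8/13 cells, a conditionally immortalized human podocyte line of a single origin that divides at a permissive temperature and differentiates at a restrictive one. The design holds 3 control cultures and 3 cultures exposed to 1 µM levamisole for 24 h. Both groups had been differentiated in medium with serum, insulin, transferrin and selenite. The sample labels place both in serum-free medium for the treatment, whereas the methods of the study place the vehicle cultures in complete medium.

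The measurement used here is the base mean, which is the authors' mean of normalized read counts over the libraries of their fit. It is taken to pool control and levamisole cultures, since the fit compared them, although which libraries entered is not given. It has no value per culture, so no spread between replicates accompanies any level and no order of levels was tested. The columns of the authors' own comparison of levamisole with control were not used, so no effect of levamisole is given. The levels are read as describing the cultures of both groups together. Library preparation followed an adapted form of CEL-seq, which primes on the poly(A) tail and reads the 3′ end of a transcript, so a base mean was not divided by transcript length. Among the 11838 protein-coding genes at or above a base mean of 5, the level and exonic length had a Spearman rho of 0.073 across genes, which share the same libraries, and among the 37 members the rho was 0.204. Levels per kilobase of exonic length are given beside the base mean for some of the comparisons between genes.

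The interstitial matrix is the fibrous network around and between cells. Fibril-forming collagens give it tensile strength, fibrillin microfibrils and elastin give it recoil, and fibronectin, thrombospondins and tenascins link it to cell-surface receptors. Procollagen chains are hydroxylated and folded in the endoplasmic reticulum, where PLOD enzymes and the chaperone HSP47 act, and secreted fibres are cross-linked by lysyl oxidases. In the healthy glomerulus podocytes rest on a basement membrane of collagen IV and laminin, and interstitial collagens are better known as products of fibroblasts and of scarred kidney.

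Of the marker genes checked, podocyte markers had a value for 10 of 14 genes, and 8 of these (80%) had a base mean of at least 5. That level was reached by 64.3% of all genes and 81.9% of protein-coding genes. The slit diaphragm adaptor CD2AP stood at 929 and the actin cross-linker ACTN4 at 14320, whereas PODXL was at 15.3, SYNPO at 22.8 and WT1 at 6.21. For NPHS1, which encodes the slit diaphragm protein nephrin, there was no value here, so the labelled cell type could not be checked on this defining marker. Endothelial markers had values for 3 of 6 genes, from 0.306 to 0.690, and leukocyte markers for 3 of 4, from 0.832 to 2.40. Mesangial or fibroblast markers had values for 4 of 8 genes, from 1.54 for GATA3 to 1021 for ACTA2, which encodes smooth muscle actin, with PDGFRB at 4.14 and THY1 at 27.5. Tubular markers had values for 3 of 7 genes, with EPCAM at 76.3 and CDH1 at 0.546. How far any of these cell types contributed to the matrix levels was not tested.

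The members differed widely in level. The highest, THBS1, had a base mean of 11062 and the lowest, ELN, one of 0.491, a ratio of 22546. A base mean above 1000 was found for 7 members, one from 100 to 1000 for 15, one from 5 to 100 for 8 and one under 5 for the remaining 7. The 30 members at 5 or more are 81.1% of the list, beside 64.3% of all genes and 81.9% of the 14455 protein-coding genes. The median of the members was 187, against 21.8 for all genes and 66.2 for protein-coding genes. Together the members took 0.599% of the summed base means, and the 5 highest (THBS1, FN1, LOXL2, SPARC and COL1A1) held 74.7% of the members' own sum. These 5 were also the members within the top 1% of the table, while 14 members were within the top 10%.

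**Figure D1:**
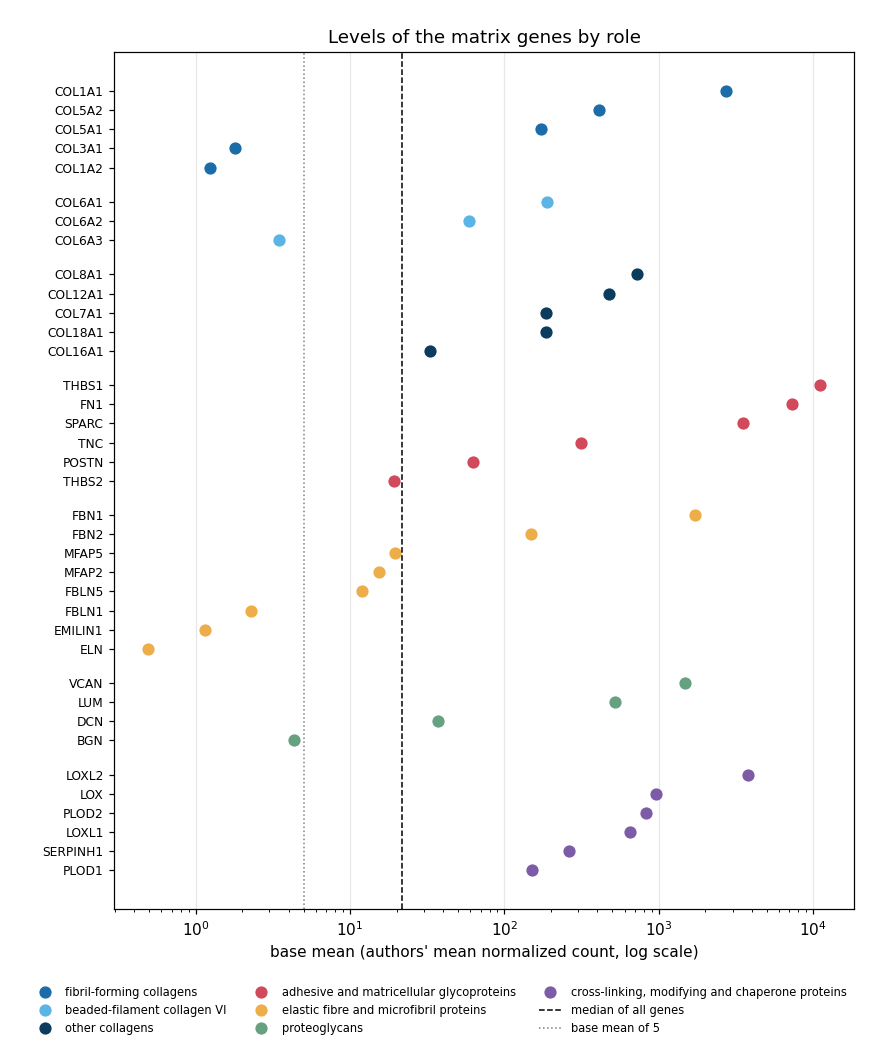
Base mean of each of the 37 matrix genes on a log scale, 1 point a gene, grouped and coloured by role; the dashed line is the median of all genes (21.8) and the dotted line a base mean of 5. Each of the fibril-forming, collagen VI, elastic fibre and proteoglycan groups holds both genes above 100 and genes under 5, whereas all 6 cross-linking, modifying and chaperone genes stand at 149.9 or more.

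The fibril-forming collagens were split between chains. COL1A1, which encodes the α1 chain of collagen I, had a base mean of 2732, at rank 199 of the table. COL1A2, which encodes the α2 chain of the same collagen, had a base mean of 1.24, at rank 16440. The ratio of COL1A1 to COL1A2 was 2200 in base mean and 2641 per kilobase of exonic length. Collagen I is usually a heterotrimer of both chains, and a homotrimer of α1 chains alone is also known. COL3A1, whose product forms fibrils together with collagen I in many tissues, was likewise low, at 1.79. A base mean this low rests on few reads, so these ratios are imprecise by an amount that the table does not give.

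Collagen V starts and limits the width of collagen I fibrils. Both of its listed chains were present, with COL5A2 at 407 and COL5A1 at 174. COL5A2 was 2.35 times COL5A1 in base mean and 3.58 times per kilobase. COL5A3, a further chain of collagen V, was at 0.978. COL11A1, a chain of the related collagen XI and not a member, had a base mean of 1075 and so stood between COL1A1 and COL5A2 in base mean. COL11A1 belongs to a fixed list of other interstitial genes and was singled out after its value was seen.

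Collagen VI forms beaded filaments near the cell surface. COL6A1 had a base mean of 189 and COL6A2 one of 58.9, whereas COL6A3, the long chain that joins them in the usual heterotrimer, was at 3.45. The ratio to COL6A3 was 54.8 for COL6A1 and 17.1 for COL6A2, and per kilobase it was 213 and 69.0. COL6A3 was under 5 and rests on few reads, so these ratios are imprecise by an unknown amount. Those per kilobase also depend on the length used for COL6A3, 21516 bases over all transcripts against 10532 for the canonical transcript. Of the alternative long chains, COL6A6 was at 0.573 and COL6A5 had no value here, and both were looked up after the low value of COL6A3 was seen. COL6A3 was at rank 14061 of the table, below the median of all genes, while COL6A1 and COL6A2 were above it.

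The other 5 collagens all had a base mean of at least 5, a level reached by 64.3% of all genes and 81.9% of protein-coding genes. COL8A1, a network-forming collagen of the vessel wall, led with 718, and COL12A1, which coats collagen I fibrils, followed with 478. COL7A1, the anchoring fibril collagen, and COL18A1, the basement membrane collagen that is the source of endostatin, had 187 each. The least was COL16A1, a fibril-associated collagen, with 33.1. COL8A2, the partner chain of COL8A1 in collagen VIII and not a member, had 9.71.

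Adhesive and matricellular glycoproteins made up the largest share. Their 6 genes took 0.351% of the summed base means of the table, more than the other 6 roles together. THBS1, which encodes thrombospondin 1, an activator of latent TGF-β, was at rank 42, and FN1, which encodes fibronectin, was at rank 55 with a base mean of 7273. SPARC, a collagen-binding protein, had 3522. Per kilobase the order of FN1 and SPARC turned, with 422 for FN1 and 759 for SPARC. TNC, which encodes tenascin C, had 313 and POSTN, which encodes periostin, 62.9. THBS2, the closest relative of THBS1, was lowest, with 19.2. THBS1 was 577 times THBS2 in base mean and 453 times per kilobase.

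**Figure D2:**
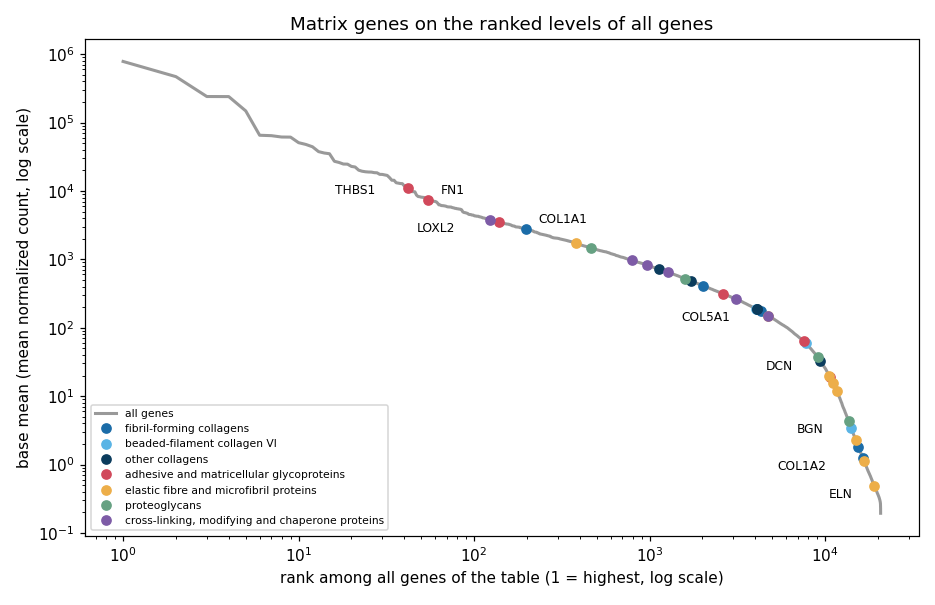
Base mean of all 20745 genes in grey against their rank, both on log scales, with the matrix genes as points coloured by role. THBS1 (rank 42) and FN1 (rank 55) lie near the top, and COL1A2 (rank 16440) and ELN (rank 19103) lie far down the curve.

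Elastic fibre genes showed high fibrillin 1 and little elastin. FBN1, which encodes the main microfibril protein, had a base mean of 1718 and FBN2, a relative best known from development, 149. The microfibril-associated MFAP5 and MFAP2 had 19.6 and 15.4, an order that turned per kilobase, where MFAP2 had 5.67 and MFAP5 had 5.05. FBLN5, a fibulin needed for elastic fibre assembly, was at 11.9. The remaining 3 genes of the role were under 5, with FBLN1 at 2.27, EMILIN1, an elastin interface protein, at 1.14 and ELN, which encodes elastin itself, at 0.491. The median of the 8 genes was 13.6, the lowest of the 7 roles.

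Among proteoglycans the large and the small members were both represented. VCAN, which encodes the hyaluronan-binding versican, had a base mean of 1478 and LUM, which encodes lumican, 519. Per kilobase their order turned, with 194 for LUM and 100.7 for VCAN. DCN, which encodes decorin, had 36.9, and BGN, which encodes biglycan, had 4.35. The ratio of DCN to BGN was 8.47 in base mean and 1.57 per kilobase, and it is imprecise because BGN rests on few reads.

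All 6 members that cross-link, modify or fold collagen had a base mean of at least 5. LOXL2, a lysyl oxidase that also acts on collagen IV, had 3791 and was the third highest member. LOX had 962 and LOXL1 had 647, and per kilobase these 2 were close, at 172 and 178. PLOD2, the lysyl hydroxylase of collagen telopeptides, had 821 and PLOD1, which hydroxylates lysines of the helix, 149.9. Per kilobase PLOD2 had 56.6, which was below LOXL1. SERPINH1, which encodes the collagen chaperone HSP47, had 262. Of the 25 further collagen biosynthesis genes of the fixed list, 24 (96%) had a base mean of at least 5. The shares at that level were 64.3% of all genes and 81.9% of protein-coding genes. The median of these 25 was 109, with a range from 3.36 for PCOLCE2 to 6099 for CRTAP, a part of the prolyl 3-hydroxylation complex. P4HB, a subunit of prolyl 4-hydroxylase, had 1868 and P4HA1, its catalytic partner, 438. Such enzymes modify collagen chains, and PLOD1, the lowest enzyme among the members, stood above COL1A2, COL3A1, COL6A2, COL6A3 and COL16A1. Every other collagen gene among the members stood above PLOD1, from 174 for COL5A1 to 2732 for COL1A1.

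**Figure D3:**
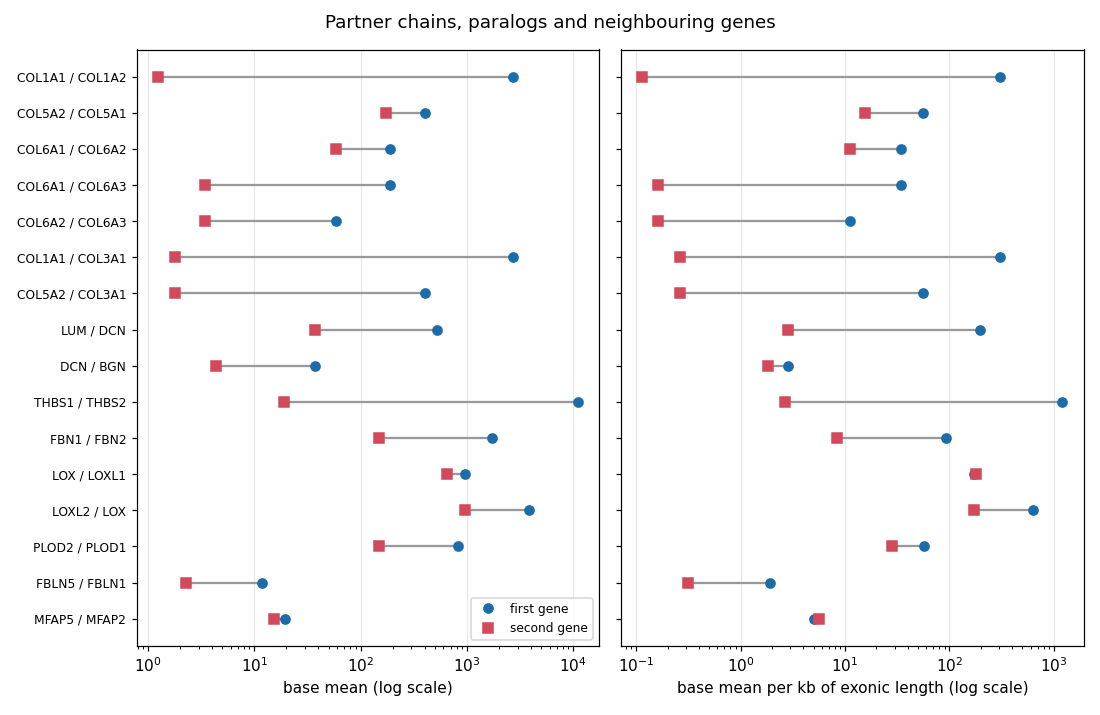
Levels of 16 pairs of partner chains, paralogs and neighbouring genes on log scales, as base mean (left) and as base mean per kilobase of exonic length (right); circles are the first gene and squares the second. The widest pair is COL1A1 and COL1A2 (2732 and 1.24 in base mean), and only LOX with LOXL1 and MFAP5 with MFAP2 change order between the panels.

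Members that lie side by side in the genome differed in level. On GRCh38 with the GENCODE 44 annotation the members are spread over 17 chromosomes, and in 3 places 2 members are neighbours with no protein-coding gene between them. COL3A1 (chromosome 2, 188974373 to 189012746, plus strand) and COL5A2 (chromosome 2, 189031898 to 189225312, minus strand) end toward each other across 19.2 kb. COL5A2 was 227 times COL3A1 in base mean, a ratio that is imprecise because COL3A1 rests on few reads. LUM (chromosome 12, 91102629 to 91111494) and DCN (chromosome 12, 91140484 to 91183217) lie on the minus strand 29.0 kb apart. LUM was 14.1 times DCN in base mean and 68.2 times per kilobase. COL6A1 (chromosome 21, 45981770 to 46005050) and COL6A2 (chromosome 21, 46098112 to 46132848) lie on the plus strand 93.1 kb apart, and COL6A1 was 3.21 times COL6A2. COL1A1 (chromosome 17, 50184101 to 50201632, minus strand) and COL1A2 (chromosome 7, 94394895 to 94431227, plus strand) are not linked. Reads of a 3′ protocol can be left uncounted where genes overlap, so the last 500 exonic bases of the canonical transcript were checked for each member. None of the 37 had any of these bases covered by an exon of another checked gene on the same strand. The exons came from GENCODE 44, which is later than the authors' annotation. Genes with identifiers newer than any in the authors' data were left out of the check. Other transcript ends were not checked, and the part of uncounted reads in any level was not tested.

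Promoter windows from RefSeq (GRCh38.p14) run from 250 bases before to 50 bases after a transcript start. They were at hand for 25 of the 37 members, with 32 windows in all. COL1A1, COL1A2, COL3A1, COL5A2 and COL6A1 are among the 12 members without a window. Windows of a paralog pair and of a chain pair are shown because their levels lie far apart although the genes are related. THBS1 and THBS2 are paralogs with base means of 11062 and 19.2, and COL6A2 and COL6A3 are partner chains with 58.9 and 3.45. Capitals mark the TATA motif TATAA, the GC box motif GGGCGG and the CCAAT motif, each on either strand. The windows are chr15:39580829-39581128 (plus strand) for THBS1, chr6:169253797-169254096 (minus) for THBS2, chr21:46097862-46098161 (plus) for COL6A2 and chr2:237414115-237414414 (minus) for COL6A3.
THBS1: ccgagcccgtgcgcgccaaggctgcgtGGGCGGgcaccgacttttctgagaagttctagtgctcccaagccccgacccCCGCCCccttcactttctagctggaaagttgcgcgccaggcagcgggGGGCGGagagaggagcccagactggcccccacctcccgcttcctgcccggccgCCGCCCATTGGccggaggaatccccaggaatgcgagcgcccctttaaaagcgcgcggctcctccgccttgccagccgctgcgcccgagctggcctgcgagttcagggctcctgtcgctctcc
THBS2: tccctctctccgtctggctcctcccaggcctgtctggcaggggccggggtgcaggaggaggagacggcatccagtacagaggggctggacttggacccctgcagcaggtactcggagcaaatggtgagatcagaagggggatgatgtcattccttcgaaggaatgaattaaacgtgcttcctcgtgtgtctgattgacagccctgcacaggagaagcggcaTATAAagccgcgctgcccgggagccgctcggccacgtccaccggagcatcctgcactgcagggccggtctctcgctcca
COL6A2: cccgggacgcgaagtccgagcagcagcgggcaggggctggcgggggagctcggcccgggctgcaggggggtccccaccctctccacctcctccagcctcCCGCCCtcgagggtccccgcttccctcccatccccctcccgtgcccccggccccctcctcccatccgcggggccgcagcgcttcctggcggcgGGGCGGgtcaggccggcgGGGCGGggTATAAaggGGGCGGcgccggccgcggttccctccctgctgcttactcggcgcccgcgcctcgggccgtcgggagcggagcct
COL6A3: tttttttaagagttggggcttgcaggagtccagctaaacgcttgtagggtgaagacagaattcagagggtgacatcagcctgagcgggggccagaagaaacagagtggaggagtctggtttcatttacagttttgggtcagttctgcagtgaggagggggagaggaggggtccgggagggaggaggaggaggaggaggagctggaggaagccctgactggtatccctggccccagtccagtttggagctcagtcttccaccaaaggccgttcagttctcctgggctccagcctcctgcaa

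The THBS1 window holds GGGCGG 4 times and CCAAT 1 time and no TATAA. The THBS2 window holds 1 TATAA, which begins 29 bases before the start, and no GGGCGG. The COL6A2 window holds 1 TATAA, 32 bases before the start, and GGGCGG 4 times, whereas the COL6A3 window holds none of the 3 motifs. GC content was 70.0% for THBS1, 61.7% for THBS2, 79.3% for COL6A2 and 56.3% for COL6A3. Over all member windows, the TATA motif was in 11 of 32, the GC box motif in 22 and the CCAAT motif in 8, each on either strand. These are shares of 34.4%, 68.8% and 25%, beside 20.4%, 45.0% and 34.6% of all 35116 windows. Some members have more than 1 window, and windows of COL5A1 and of LOX overlap. Counted by gene, the motifs were in 11, 19 and 7 of 25 members. The median GC content of the member windows was 67.8%, against 58.7% for all windows. A match describes the letters of a window only.

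Beside the interstitial genes, basement membrane genes also had values in the same cultures. Of the 20 genes of the basement membrane list 19 had a value. All 19 were at 5 or more, beside 64.3% of all genes and 81.9% of protein-coding genes. They ranged from 5.08 for NID2 to 5805 for LAMC1. The summed base mean of the 37 members was 2.41 times that of these 19 basement membrane genes, and THBS1 and FN1 alone held 48.2% of the members' sum. The medians had the other order, with 187 for the members and 211 for the basement membrane genes. Of 34 interstitial genes outside the members 24 had a value, 16 of them (66.7%) at 5 or more. The highest of these were CCN2 (listed as CTGF), at 2161, and CCN1 (listed as CYR61), at 1376, both matricellular proteins. TGFBI, a collagen-binding adhesion protein, followed at 1131.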

How the data were processed

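RNA was sequenced from 3 control and 3 levamisole-treated cultures of AB 8/13 podocytes. Per the labels and the methods, the authors trimmed reads with Trim Galore 0.4.5, mapped them to GRCh38 (Ensembl release 95) with STAR 2.7.5a, counted them with HTSeq 0.11.0 and normalized them with DESeq2 1.22.0 in R 3.5.3. The methods also describe a BWA alignment with scaling by total reads. The authors deposited 1 table, in which base mean (a signal) is each gene's average normalized count. Which libraries entered the average is not given. The depth per library is unknown. The other columns of the deposited table hold the authors' log2 fold change with its standard error, Wald statistic, p-value and adjusted p-value, and were not used.

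Ranks, percentiles, shares, ratios and levels per kilobase were computed in Python (3.11.15) using the packages pandas (2.3.3), NumPy (2.4.6) and, for rank correlation, SciPy (1.17.1). Figures used matplotlib (3.10.9). A base mean of at least 5 was taken as detected. GENCODE 44, on the same assembly but of a later release than the authors' annotation, gave positions, biotypes and exonic lengths, and 20599 of the 20745 identifiers matched. The functions were checked on constructed inputs with known answers. All members were named, with the highest and lowest of each role, the chains of collagens I, III, V and VI and members under 5 in full. The members and lists were chosen with earlier results of these data known. No test was run, and edgeR or DESeq2 refits were not made, since they need counts per culture.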

Additional observations from a re-analysis of the deposited data

How the results depend on the processing

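The levels are pooled means without replicate error, so alternatives show only how the description depends on the scale. The count of 30 detected members was 37 with no filter, which is fixed by the rule that drops absent genes. The count was 30 with a minimum of 10 and 24 with a minimum of 50. The share of 0.599% became 0.918% without the mitochondrially encoded genes, which took 34.8% of the summed base means, and 0.425% without THBS1. The median percentile of the members was 80.3 among all genes, 72.2 among protein-coding genes and 72.9 per kilobase of exonic length. It was the same without members whose 3′ end is covered, since the check of 3′ ends found 0. Of 87 pairs of members within a role, 81 had the same order per kilobase. Among the 17 ratios computed 2 turned, the log2 ratio of LOX to LOXL1 from 0.57 to -0.049 and that of MFAP5 to MFAP2 from 0.35 to -0.17. Exonic length is itself a later annotation's sum over all transcripts of a gene. No paired analysis was possible because only a mean over libraries is given. Lacking counts of single cultures, left-out replicates, edgeR and DESeq2 fits and a comparison of levamisole with control were not run.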
